A study of Mus musculus with 18 samples.

Results

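Genes that repair DNA double-strand breaks and interstrand crosslinks were examined in the lung of adult male Muta™Mouse given a mixture of 4 polycyclic aromatic hydrocarbons (4PAH-Mix: benzo(a)pyrene (BaP), benz(a)anthracene, benzo(b)fluoranthene and chrysene) by mouth. The set held 37 genes, chosen by name: 10 of damage signalling, 12 of homologous recombination, 10 of the Fanconi anemia pathway and 5 of end joining. Of these, 36 had a probe among the 20656 gene symbols named on the array, and Rad51c had none. Mice of about 12 weeks were gavaged once a day for 28 days with olive oil (vehicle, 5 mice), or with the mixture in olive oil at 12.5 (low, 4 mice), 25 (medium, 5 mice) or 50 (high, 4 mice) mg BaP equivalents/kg-bw/day, and the lungs were taken 72 h after the last dose. All groups carried the same lacZ reporter transgene, which serves mutation counting, on a mixed BALB/C-DBA/2 background. RNA came from random sections of lung, of which the right lobe was collected by the paper's methods. In such mixed tissue fewer cells of a type and less RNA per cell cannot be told apart.

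Metabolites of benzo(a)pyrene and its relatives bind DNA bases as bulky adducts, which are mainly removed by nucleotide excision repair. An adduct met by a replication fork can stall or break it, and the break is then handled by the genes described here. Atm and Atr are kinases that sense breaks and stalled forks and pass the signal to Chek1 and Chek2. The Brca proteins and their partners copy the lost sequence from the sister chromatid, the Fanconi anemia proteins unhook crosslinked strands ahead of that copying, and the end joining proteins ligate broken ends without a template.

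In each mouse, lung RNA labelled with Cy5 was hybridized against a common reference labelled with Cy3, RNA pooled from 11 mouse cell lines, and the log2 ratio of the dyes was the measurement. A log2 fold change is the difference of these ratios between 2 groups. On the 18 arrays the lung signal exceeded background clearly for 51.5% to 61.1% of the probes. Cdkn1a, the p53 target that arrests the cell cycle, rose in dose order by 1.39 ± 0.13, 2.09 ± 0.12 and 2.47 ± 0.13 (log2 fold change ± SE; limma, adjusted p = 5.9e-06, 1.8e-09 and 2.1e-10), so the exposure was visible at every dose. The 8 markers of lung epithelium and endothelium were well above background on all 18 arrays. Of these, 1 was called (adjusted p of 0.05 or less by limma, as for all genes here) at the medium and the high dose, the endothelial gene Pecam1, which rose by 0.69 and 0.74 on the log2 scale. The other 7 had negative log2 fold changes at both doses and were not called, and the median of the 8 was -0.25 in the medium dose mice and -0.14 in the high dose mice. Among these 7 the unadjusted limma p was under 0.05 for 3 at the medium dose and for 1 at the high dose. The mean log2 ratio of the 10 lymphocyte markers lay between 0.46 and 1.21 in the vehicle group and between 0.88 and 1.00 in the high dose group. B cell genes Cd79b and Ms4a1 were the 2 lymphocyte markers called at the medium dose, each with a log2 fold change of 0.70, and none of the 10 was called at the high dose. At both doses 4 of the 10 had negative log2 fold changes, down to -0.46, and at the high dose 3 positive and 3 negative ones had an unadjusted limma p under 0.05. None of the 6 myeloid markers was called at any dose, but their log2 fold changes spread widely. They ran from -0.41 to 1.09 at the medium dose and from -0.39 to 1.25 at the high dose. The unadjusted limma p was under 0.05 for 1 positive and 1 negative value at the medium dose. At the high dose it was so for 2 positive values and 1 negative value. The part of these cell types in the results below was not tested.

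The repair genes changed little. A gene was called where the adjusted p of its probe (limma, Benjamini-Hochberg over 55681 probes) was 0.05 or less. At the low dose none of the 36 genes was called, with 0.167% of all probes called. At the medium dose 2 were called, Atm and Prkdc, with 3.54% of all probes called, and at the high dose the same 2, with 4.18%. Both were higher than in the vehicle group, and 2 of 36 is close to the share of all probes. Between the high and the low dose none was called, with 0.0611% of all probes called. With a fold of at least 1.5 asked for as well, none of the 36 genes was called in any of the 4 comparisons. The shares of all probes called by that rule against the vehicle were 0.0898%, 0.726% and 1.2% in dose order, and 0.0449% between the high and the low dose. At an unadjusted p under 0.05, 1 gene passed at the low dose (8.01% of all probes), 9 at the medium dose (15.3%), 7 at the high dose (15.7%) and 3 between the high and the low dose (6.71%). The 3 comparisons with the vehicle share its 5 mice.

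The 31 genes measured well above background in Cy5, on each array of at least 1 group, set the limits of these counts. The other 5 were Brca1 and Fancd2, which were so on no array, Brip1 (1 of 18 arrays), Palb2 (2 of 18) and Chek1 (9 of 18), and no fold change is given for them. Among the 31, the 95% interval of the high dose log2 fold change lay within ±0.58, a fold of 1.5 in either direction, for 29 genes. The exceptions were Fanca, a subunit of the Fanconi core complex, with an interval from 0.00 to 0.98, and Rbbp8, which starts the resection of broken ends, with an interval from 0.04 to 0.59. The within-group SD of a gene had a median of 0.14 over all 36 and was highest for Fanca, at 0.42. In the high dose mice 24 of the 31 genes stood above and 7 below the vehicle group, beside 50.8% of all probes above it. The median log2 fold change of the 31 was 0.15. In the low dose mice it was 0.02 and in the medium dose mice 0.08, beside 0.003, 0.004 and 0.003 over all probes in dose order.

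**Figure D1:**
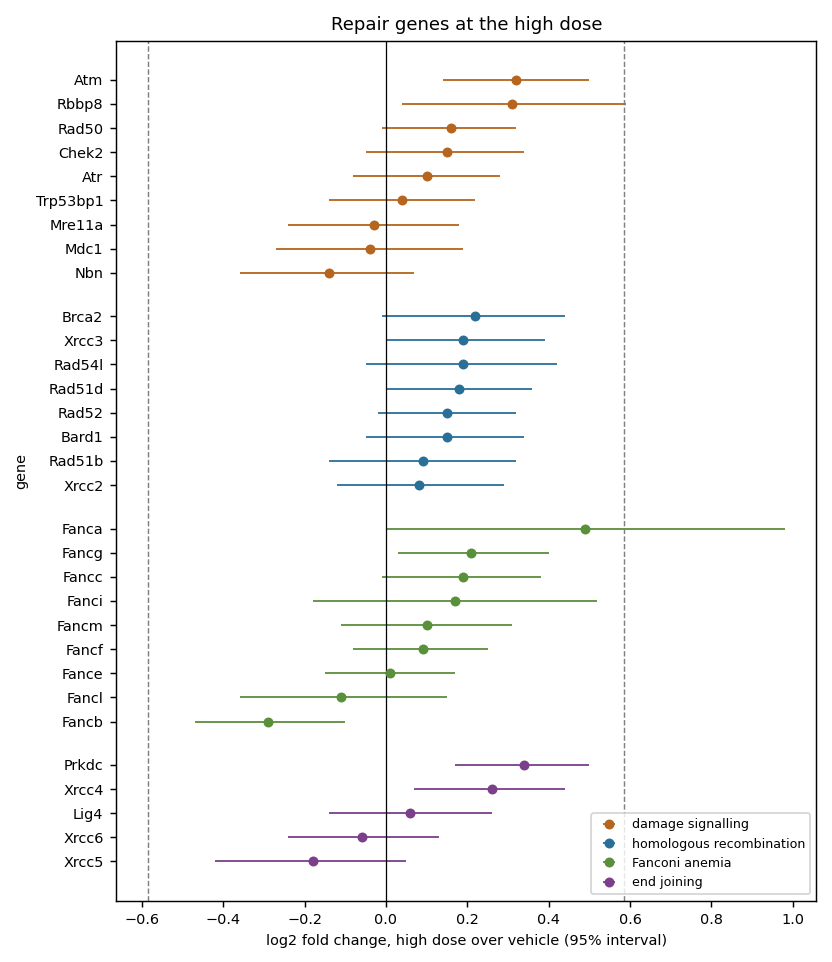
Log2 fold change of the high dose over the vehicle (x axis) for the 31 measured repair genes (y axis), grouped by role (color), with 95% intervals from limma as bars and a fold of 1.5 in either direction as dashed lines. The points lie between -0.29 (Fancb) and 0.49 (Fanca), and only the intervals of Fanca and Rbbp8 cross a dashed line.

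In unexposed lung these genes sat low against the reference. Of the 28 repair genes well above background in both dyes on all 18 arrays, 27 had a mean log2 ratio under 0 in the vehicle mice, with a median of -0.83. Over all 23098 probes measured that well, 49.2% were under 0 and the median was 0.01. The exception was Lig4, the ligase of end joining, at 0.37. The lowest of the 28 was Bard1, the partner of Brca1, at -2.76. The 18 proliferation markers were low too, with a mean log2 ratio between -2.95 and -2.55 in the vehicle mice.

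The promoters of the set were read for sequences that it might share. RefSeq windows on GRCm38.p6, from 250 bases before to 50 bases after a transcript start, were at hand for 30 of the 37 genes. The letters bound by E2F factors, which drive genes of the S phase, were searched as TTTCCCGC, TTTGGCGC, TTTCGCGC and TTTGCCGC on both strands, with overlapping matches counted once a gene. They were found in 7 of the 30 genes (23.3%), and in 2.6% of the 27025 genes with a window. The member windows were richer in G and C than all windows (median 59.7% against 52.7%). The 6 genes with a match and a probe are shown here on their own strand, with the match in capitals; the 7th was Rad51c.
Chek2, chr5:110839821-110839848, plus strand: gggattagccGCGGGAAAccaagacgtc
Mdc1, chr17:35841472-35841499, plus strand: cttcagcctgTTTCCCGCcggtagccgc
Brca2, chr5:150522443-150522470, plus strand: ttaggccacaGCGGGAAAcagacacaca
Bard1, chr1:71103164-71103191, minus strand: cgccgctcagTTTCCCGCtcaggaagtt
Fancg, chr4:43010336-43010363, minus strand: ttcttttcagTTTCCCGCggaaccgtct
Xrcc6, chr15:82016313-82016340, plus strand: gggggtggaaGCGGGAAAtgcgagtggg
All 6 hold the same 8 letters, TTTCCCGC, on one strand or the other. None of the 6 was called. Their log2 fold changes at the high dose ran from -0.06 to 0.22 with a median of 0.15, and those of the 19 measured genes with a window and no match from -0.29 to 0.49 with a median of 0.10. The CCAAT box was present in 18 of the 30 genes (60%) and in 41.1% of all genes, and TTTGAA, the cell cycle homology letters, in 2 of 30 (6.67%) and 20.2% of all genes, both strands searched. A full p53 site, 2 half-sites with a spacer of 0 to 13 bases, was found in none of the 30 windows and in 0.074% of all genes, Cdkn1a among them.

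Damage signalling held the first of the called genes. Atm, the kinase that responds to double-strand breaks, was measured by 2 probes. With the brighter one (NM_007499), the log2 ratios were -0.93, -0.84, -0.67, -0.96 and -0.92 in the vehicle mice and -0.77, -0.69, -0.80 and -0.70 in the low dose mice. They were -0.70, -0.47, -0.35, -0.49 and -0.76 in the medium dose mice and -0.53, -0.43, -0.58 and -0.63 in the high dose mice. All 4 high dose mice were above the highest vehicle mouse, while 2 of the medium dose mice fell below it. Atm thus differed from the vehicle group by 0.12 ± 0.09 on the log2 scale in the low dose mice (limma, adjusted p = 0.778), by 0.31 ± 0.08 in the medium dose mice (adjusted p = 0.0341) and by 0.32 ± 0.09 in the high dose mice (adjusted p = 0.0347). The two-sided exact permutation p at the high dose was 0.0159, the smallest that 4 against 5 mice allow.

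The other Atm probe did not follow. It too was well above background on all 18 arrays, and its log2 ratios were 0.12, 0.00, 0.20, 0.00 and -0.07 in the vehicle mice and -0.13, -0.02, -0.06 and -0.20 in the high dose mice. It differed by -0.12 ± 0.09 in the medium and -0.15 ± 0.09 in the high dose mice (limma, adjusted p = 0.572 and 0.477). With the 2 probes averaged, Atm stood at 0.09 at both doses and was not called. The Atm call also ended at the high dose when vehicle mouse 1, 2, 4 or 5 or high dose mouse 16, 17 or 18 was left out (log2 fold change 0.29 to 0.34, highest adjusted p = 0.129), and at the medium dose without vehicle mouse 1, 2, 4 or 5 or medium dose mouse 12, 13 or 14 (0.26 to 0.32, highest adjusted p = 0.0897). Within the 3 slides the high dose difference was 0.41, 0.24 and 0.28.

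None of the other 8 measured genes of damage signalling was called, and the role had a median of 0.10 at the high dose. Atr, the kinase of stalled forks, differed by 0.10 ± 0.09. Of the kinases below, Chek2 differed by 0.15 ± 0.10. Of the complex that binds broken ends, Rad50 differed by 0.16 ± 0.08, Mre11a by -0.03 ± 0.10 and Nbn by -0.14 ± 0.10. Its cofactor Rbbp8 differed by 0.31 ± 0.13 (limma, unadjusted p = 0.0289, adjusted p = 0.238), and the scaffold proteins Trp53bp1 and Mdc1 by 0.04 ± 0.09 and -0.04 ± 0.11. A second Trp53bp1 probe stood at -0.10 ± 0.09.

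**Figure D2:**
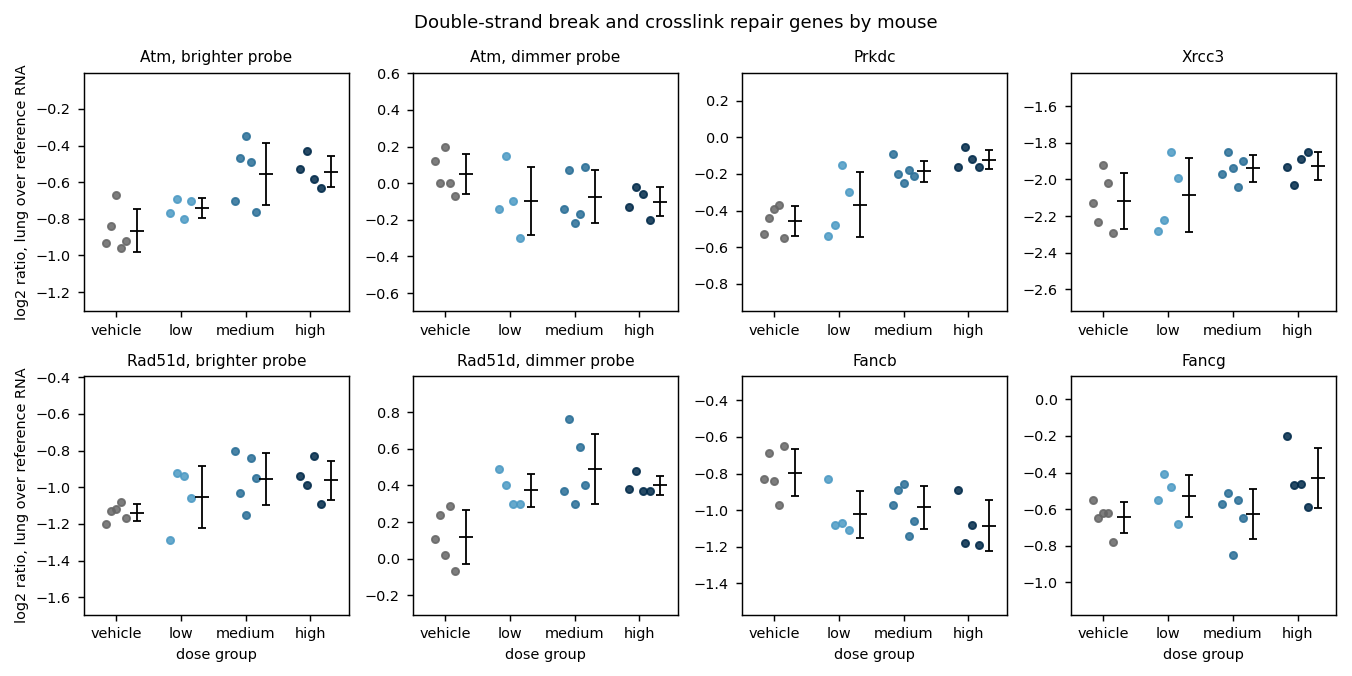
Log2 ratio of lung over reference RNA (y axis, a span of 1.3 in each panel) by dose group (x axis) for Atm, Prkdc, Xrcc3, Rad51d, Fancb and Fancg; points are mice, bars the mean ± SD. The brighter Atm probe and Prkdc stood higher in all high dose mice than in any vehicle mouse, the dimmer Atm probe did not, and in the other panels at least 1 high dose mouse lay within the vehicle range except for the dimmer Rad51d probe.

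Homologous recombination held no called gene. At the high dose all 8 measured genes of the role, each by the probe that stood for it, were above the vehicle group. Of all probes, 50.8% were above it. The 8 genes differed by 0.08 to 0.22 on the log2 scale with a median of 0.16. Their median was 0.04 at the low and 0.16 at the medium dose. Xrcc3, which helps to pair the broken strand with its template, had log2 ratios of -2.13, -2.23, -1.92, -2.02 and -2.29 in the vehicle mice and -2.28, -2.22, -1.85 and -1.99 in the low dose mice. They were -1.97, -1.85, -1.94, -2.04 and -1.90 in the medium dose mice and -1.93, -2.03, -1.89 and -1.85 in the high dose mice. The groups overlapped. At the high dose Xrcc3 differed by 0.19 ± 0.09 (limma, adjusted p = 0.304; two-sided exact permutation p = 0.0794).

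Rad51d, which acts at the same step, had log2 ratios of -1.20, -1.13, -1.12, -1.08 and -1.17 in the vehicle mice and -1.29, -0.92, -0.94 and -1.06 in the low dose mice. They were -0.80, -1.03, -1.15, -0.84 and -0.95 in the medium dose mice and -0.94, -0.99, -0.83 and -1.09 in the high dose mice. In the high dose group 3 of 4 mice were above all vehicle mice. Its brighter probe had a log2 fold change of 0.18 ± 0.09 (limma, adjusted p = 0.335). Its dimmer probe read 0.11, 0.24, 0.02, 0.29 and -0.07 in the vehicle mice, and 0.37, 0.76, 0.30, 0.61 and 0.40 at the medium dose, where it was called with 0.37 ± 0.09 (adjusted p = 0.0211). That probe had 0.28 ± 0.09 at the high dose (adjusted p = 0.102). With both probes averaged, Rad51d was called at the medium dose, at 0.28 (adjusted p = 0.0279).

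The mediators Brca2 and Bard1 differed by 0.22 ± 0.11 and 0.15 ± 0.10 at the high dose. Brca2 was called there with the scanner software's ratios (0.49, limma, adjusted p = 0.0187) and with the Cy5 channel alone (0.33, adjusted p = 0.0161). The 2 well measured Bard1 probes had opposite signs, and the dimmer one stood at -0.10 ± 0.10. Rad52, which anneals single strands, differed by 0.15 ± 0.08 with no overlap between the high dose and the vehicle group, which was also so for Atm, Prkdc and Xrcc4. These 4 of 36 compare with 8.11% of all probes whose groups did not overlap in either direction. Rad54l, Rad51b and Xrcc2 differed by 0.19, 0.09 and 0.08.

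The Fanconi anemia genes held the lowest and the highest fold change of the set and no called gene. Fancb, a subunit of the core complex that ubiquitinates Fancd2, was the lowest. Its log2 ratios were -0.83, -0.69, -0.84, -0.97 and -0.65 in the vehicle mice and -0.83, -1.08, -1.07 and -1.11 in the low dose mice. They were -0.97, -0.89, -0.86, -1.14 and -1.06 in the medium dose mice and -0.89, -1.18, -1.08 and -1.19 in the high dose mice. In the high dose group 3 of 4 mice were below every vehicle mouse. Going up the doses, Fancb stood at log2 fold changes of -0.23 ± 0.09, -0.19 ± 0.08 and -0.29 ± 0.09 (limma, adjusted p = 0.493, 0.290 and 0.0769). It was past the threshold at the high dose when arrays were scaled to a common spread (-0.34, adjusted p = 0.0433), when only probes well above background were tested (-0.29, adjusted p = 0.0475), and without vehicle mouse 4 (-0.33, adjusted p = 0.0494) or high dose mouse 16 (-0.35, adjusted p = 0.0486).

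Fancg, another core subunit, had log2 ratios of -0.55, -0.65, -0.62, -0.62 and -0.78 in the vehicle mice and -0.55, -0.41, -0.48 and -0.68 in the low dose mice. They were -0.57, -0.51, -0.85, -0.55 and -0.65 in the medium dose mice and -0.20, -0.47, -0.46 and -0.59 in the high dose mice. The groups overlapped through 1 high dose mouse. Fancg differed by 0.21 ± 0.09 at the high dose (limma, adjusted p = 0.223; two-sided exact permutation p = 0.0317) and 0.02 ± 0.08 at the medium dose. With the scanner software's ratios it stood at 0.69 at the high dose and was called (limma, adjusted p = 0.0359). Fanca had the highest value, 0.49 ± 0.24 (adjusted p = 0.321), and the widest interval. By the probe that stood for each gene, Fancc, Fanci, Fancm, Fancf and Fance lay between 0.01 and 0.19. Fancl, the ubiquitin ligase of the complex, lay at -0.11 ± 0.12. The second Fancl probe, well above background on all 18 arrays, had the opposite sign, 0.11 ± 0.12. A dimmer probe of Fance was called at the medium dose (0.34 ± 0.09, adjusted p = 0.0342), where the brighter one stood at -0.02. At the high dose that dimmer probe had 0.26 ± 0.09 (limma, adjusted p = 0.141). The second Fancc probe, well above background on all 18 arrays, had 0.31 ± 0.10 at the low and 0.25 ± 0.10 at the high dose. It was not called (limma, adjusted p = 0.33 and 0.194).

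**Figure D3:**
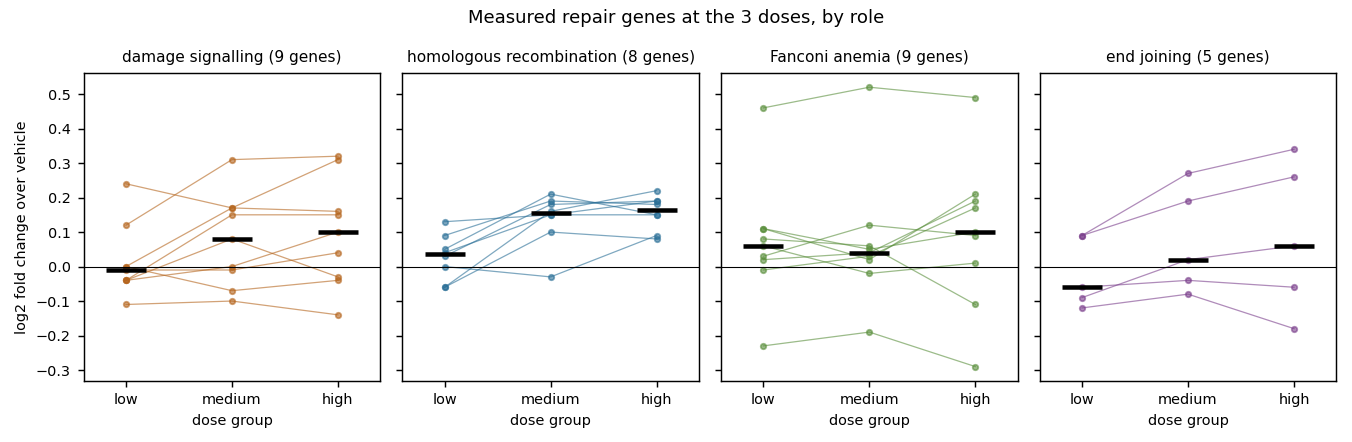
Log2 fold change over the vehicle (y axis) at the low, medium and high dose (x axis) for the 31 measured repair genes, with a panel for each role; each line is a gene and black bars are medians. At the high dose the medians were 0.10, 0.16, 0.10 and 0.06 from left to right, and the genes of end joining spread from -0.18 to 0.34.

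End joining held the second called gene. Prkdc (NM_011159), the catalytic subunit of the DNA-dependent protein kinase that holds broken ends together, was measured by 1 probe. The BALB/c strain is known for an allele of this gene that lowers its protein, and which allele these mice carried was not examined. The log2 ratios were -0.53, -0.44, -0.39, -0.37 and -0.55 in the vehicle mice and -0.54, -0.48, -0.15 and -0.30 in the low dose mice. They were -0.09, -0.20, -0.25, -0.18 and -0.21 in the medium dose mice and -0.16, -0.05, -0.12 and -0.16 in the high dose mice. Every medium and high dose mouse was above every vehicle mouse, and the low dose mice overlapped with them. Against the vehicle group Prkdc differed on the log2 scale by 0.09 ± 0.08 in the low dose mice (limma, adjusted p = 0.836), by 0.27 ± 0.07 in the medium dose mice (adjusted p = 0.0433) and by 0.34 ± 0.08 in the high dose mice (adjusted p = 0.0150), a fold of 1.26. The two-sided exact permutation p was 0.00794 for the medium dose mice and 0.0159 for the high dose mice, each the smallest its group sizes allow.

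The high dose call of Prkdc ended without high dose mouse 17 (adjusted p = 0.0603), with a log2 fold change of 0.31 to 0.36 whichever mouse was left out. At the medium dose the call held without low dose mouse 6, 7, 9 or 10 or medium dose mouse 13. It ended without any vehicle or high dose mouse or without medium dose mouse 11, 12, 14 or 15 (0.25 to 0.29, highest adjusted p = 0.114). Within the 3 slides the difference was 0.38, 0.27 and 0.39 in the high and 0.34, 0.16 and 0.34 in the medium dose mice. Between the high and the low dose Prkdc differed by 0.25 ± 0.08 and was not called (adjusted p = 0.527).

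None of the partners of Prkdc at the broken end was called. Xrcc5 and Xrcc6, which form the Ku ring that recruits it, stood at -0.18 ± 0.11 and -0.06 ± 0.09 at the high dose. Xrcc4 and Lig4, which form the ligase, stood at 0.26 ± 0.09 (limma, unadjusted p = 0.00818, adjusted p = 0.116) and 0.06 ± 0.10.

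**Figure D4:**
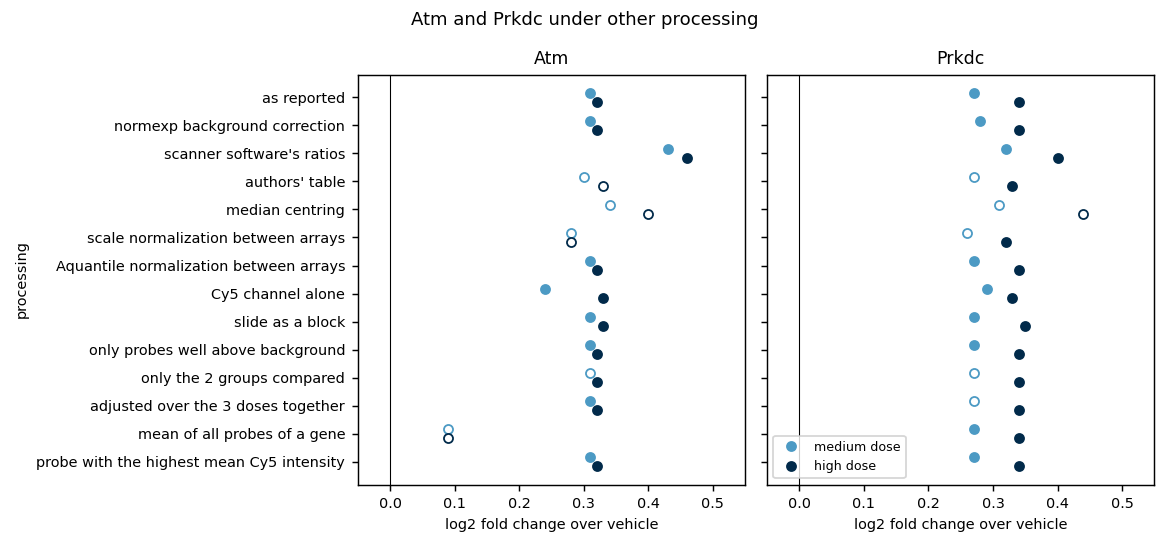
Log2 fold change over the vehicle (x axis) of Atm and Prkdc at 2 doses, as reported and under 13 other ways of processing (y axis); filled points have an adjusted p of 0.05 or less. All points lie above 0, the Atm points fall to 0.09 where its probes are averaged, and the high dose call of Prkdc ended only under median centring.

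Another 59 genes of these pathways, from a list of single-strand binding, end resection, nuclease, helicase and signalling proteins, were read beside the set. In dose order 0, 4 and 3 of them were called, beside 0.167%, 3.54% and 4.18% of all probes. All those called were higher than in the vehicle group, and the median log2 fold change over the 59 was 0.02, 0.11 and 0.13. Those called at the high dose were Zswim7, Rpa1 and Rpa2. Zswim7, which also acts in homologous recombination, had log2 ratios of -1.34, -1.50, -1.30, -1.63 and -1.44 in the vehicle mice and -1.06, -0.98, -0.94 and -0.88 in the high dose mice. The groups did not overlap, and the log2 fold change was 0.48 ± 0.09 (limma, adjusted p = 0.00425).

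Rpa1 and Rpa2 are subunits of replication protein A, which coats single-stranded DNA in replication and repair alike. Rpa1 had log2 ratios of -1.11, -1.20, -1.06, -1.27 and -1.07 in the vehicle mice and -0.91, -0.79, -0.76 and -0.81 in the high dose mice. Its log2 fold change was 0.32 ± 0.07 (limma, adjusted p = 0.0146), without overlap. Rpa2 had -1.24, -1.55, -1.11, -1.27 and -1.44 in the vehicle mice and -0.90, -0.84, -0.92 and -1.12 in the high dose mice, of which 1 lay within the vehicle range. It rose by 0.34 ± 0.08 in the medium and 0.37 ± 0.09 in the high dose mice (adjusted p = 0.0222 and 0.0159). The high dose call of Rpa1 ended without high dose mouse 18 (0.31, adjusted p = 0.0502), and that of Rpa2 without high dose mouse 16 or 17 (highest adjusted p = 0.0682).

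Under median centring Zswim7, Rpa1 and Rpa2 stood at 0.67, 0.55 and 0.48 at the high dose and none was called (limma, adjusted p = 0.496, 0.654 and 0.473). Scaling between arrays ended the call of Rpa1 (0.27, adjusted p = 0.0562). The medium dose call of Rpa2 ended without vehicle mouse 2 or 5 or medium dose mouse 11 or 14 (highest adjusted p = 0.0687). At the medium dose the called genes besides Rpa2 were Mus81, a nuclease (0.37 ± 0.09), Tdp2, which frees ends from topoisomerase (0.30 ± 0.07), and Rmi1, which dissolves recombination junctions (0.25 ± 0.06).

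**Figure D5:**
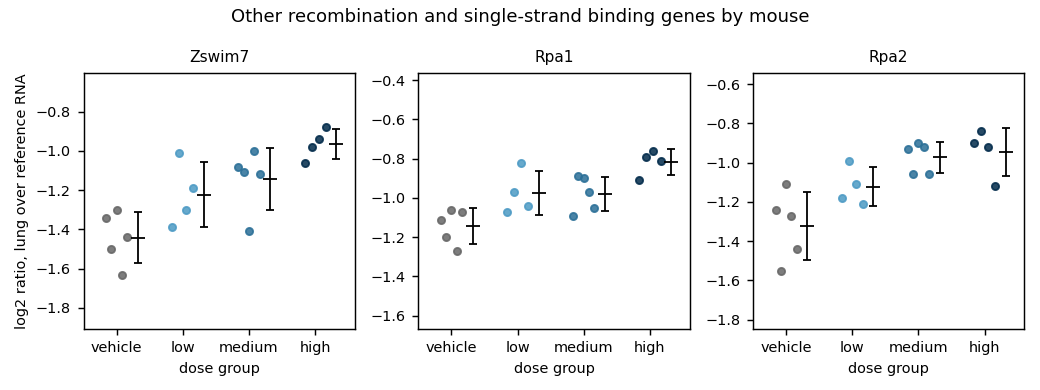
Log2 ratio of lung over reference RNA (y axis, a span of 1.3 in each panel) by dose group (x axis) for the 3 further pathway genes called at the high dose; points are mice, bars the mean ± SD. Zswim7 and Rpa1 stood higher in all high dose mice than in any vehicle mouse, and for Rpa2 the groups overlapped.

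Proliferation markers were read beside these genes, several of which also act in DNA replication. Of the 18 markers, 1 was called at the medium dose, Birc5 (0.66 ± 0.15, limma, adjusted p = 0.0134). At the high dose 1 was called, Mcm2 (0.53 ± 0.12, adjusted p = 0.0148), and 16 of 18 were higher than in the vehicle group at the high dose, with a median of 0.14. The mean log2 ratio over the 18 lay between -2.88 and -2.61 in the low, -2.76 and -2.37 in the medium and -2.74 and -2.63 in the high dose mice. Cdk1 and Aurkb were not well above background on any array. The part of proliferating cells in the values of the repair genes was not tested.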

How the data were processed

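The authors hybridized lung RNA (Cy5) against Universal Mouse Reference RNA (Cy3) on Agilent two-colour arrays with no dye swap, and deposited scanner files with spot intensities and log10 ratios, and a table of normalized log2 ratios. Members, gene lists and tests were chosen with earlier results of these data known. From the deposited median intensities without background subtraction, ratios were normalized within arrays by loess, outlier spots (215 to 307 an array) and control spots were left out, and 1 probe stood for a gene, that with the highest mean intensity over both dyes. All 18 mice entered 1 fit of 4 groups (R 4.3.3, limma 3.58.1), in place of the authors' MAANOVA, with p-values adjusted over 55681 probes within a comparison. Single genes also had a two-sided exact permutation test. Values by mouse are given for called members and, in roles with none, for the 2 with the smallest high dose p; further pathway genes are named where called at the high dose, and 1 of the listed genes is not reported here. Mice were separate animals. Each of the 3 slides held all 4 groups, but a dose group always took the same slide column, and column and dose cannot be told apart. On simulated data the fit was checked first. The deposited log2 table correlated with these ratios at 0.9955 or more on each array. The number of arrays limits the precision.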

Additional observations from a re-analysis of the deposited data

Results flagged for a closer look

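Among the 9 genes whose values are given by mouse, in 4 groups each, 2 of 36 group values had a single mouse far from the others by Dixon's criterion, which chance alone does in about 1 of 20 groups. Fancb read -0.83 in low dose mouse 6, above the other low dose mice. Zswim7 read -1.41 in medium dose mouse 13, below the other medium dose mice, and without that mouse its medium dose log2 fold change was 0.37 (limma, adjusted p = 0.0142), past the threshold.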

How the results depend on the processing

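Of the 2 repair genes called at the medium dose and again at the high dose, the count became 4 (Atm, Brca2, Fancg and Prkdc) at the high dose with the scanner software's ratios, where 1 of them, Fancg, also passed a fold of 1.5 (log2 fold change 0.69). With the Cy5 channel alone it became 3 at both doses (Atm, Brca2 and Prkdc), and with only probes well above background 3 at the high dose (Atm, Fancb and Prkdc). The shares of all tested probes called in these 3 high dose fits were 4.02%, 4.52% and 9.92% in that order. The last was over 29507 probes, and 3 of its 31 repair genes is close to that share. At the medium dose the share was 4.27% with the Cy5 channel alone. Scaling between arrays gave 2 at the high dose, Fancb and Prkdc, without Atm, beside 4.54% of all probes. The count became 1 (Prkdc) at the high dose with the authors' table and with all probes of a gene averaged, beside 3.92% and 3.6% of all that was tested. At that dose it became 0 with arrays only centred on their median, where 0.151% of all probes were called. At the medium dose it became 0 with the authors' table, with median centring, with scaling between arrays and with only the 2 groups in the fit. The shares of all probes called were 3.28%, 0.0593%, 3.27% and 2.73% in that order. With p-values adjusted over the 3 doses together it became 1 (Atm) at the medium dose, beside 3.02% of all probes. Leaving out 1 mouse gave counts of 0 to 2 at either dose, beside 2.23% to 4.62% of all probes at the medium and 2.33% to 4.56% at the high dose. Median centring moved the median log2 fold change of the 36 genes from 0.10 to 0.21 at the high and from 0.00 to 0.08 at the low dose. The cause was not tested. No gene was called at the low dose or between the high and the low dose under any of the alternatives run. With the slide as a block, or with normexp background correction, the count was 2 at both doses. In that order, 4.74% and 3.79% of all probes were called at the medium dose, and 5.16% and 4.41% at the high dose. Aquantile normalization between arrays leaves ratios as they are, and the probe with the highest Cy5 intensity was the same one for every gene, so neither could change a value. No paired analysis was possible because each mouse has a number of its own, shared by no other group.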

Other observations

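Mcm4, a subunit of the replicative helicase, lies next to Prkdc in the mouse genome. Its log2 difference from the vehicle group was 0.11 ± 0.09 in medium dose and 0.25 ± 0.10 in high dose mice (limma, adjusted p = 0.663 and 0.193), in the direction of Prkdc, and was not called. Npat, which shares its promoter region with Atm, was not well above background on any array.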
